A study of Macaca mulatta with 12 samples.

Results

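Apolipoproteins are the protein coats of the particles that carry fat and cholesterol in blood, and the liver makes most of them. In hepatocytes the very large protein APOB is loaded with triglyceride by the transfer protein MTTP and leaves the cell as very low-density lipoprotein (VLDL), while APOA1 and APOA2 form the frame of high-density lipoprotein (HDL). APOE guides remnant particles back to liver receptors, and the hepatic lipase LIPC trims lipoproteins in the liver sinusoids. Alcohol is known to alter liver fat and the export of VLDL.

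The genes described were chosen by name from a list of 10 (APOA1, APOA2, APOA4, APOA5, APOB, APOC3, APOE, APOH, MTTP and LIPC). Of these, 8 were matched by symbol to an Ensembl macaque identifier in the transcript table, out of 23993 gene identifiers in all. APOA5 and APOC3 were not analysed here. The 8 genes were each carried by 1 identifier with 1 to 3 transcripts, 17 transcripts in all, and all 8 passed the filter on low counts.

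RNA was sequenced from liver biopsies of 6 male rhesus macaques, about 4.6 years old, taken before (baseline) and at the end (post-induction) of an ethanol induction of 90 days. Every animal went through the same daily steps of 0.5, 1 and 1.5 g ethanol per kg body weight, each kept for 30 days. The classes name later drinking: in the 12 months of free access that followed the second biopsy, 3 animals averaged a daily intake of 1.5 g per kg (light drinkers, LD) and 3 of 4.0 g per kg (very heavy drinkers, VHD). The 4 groups were LD baseline, LD post-induction, VHD baseline and VHD post-induction, with 3 libraries each from the same animals. No animal without ethanol is among the samples, so ethanol and the time between biopsies cannot be told apart.

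Libraries held 5970033 to 25060718 transcript counts, of which the 8 genes took 2.00 to 3.09%. Albumin and the other hepatocyte markers (11 of 12 found) summed to 151402 to 272558 CPM (a gene's count relative to its library's total, with totals scaled by TMM factors), against 234 to 1240 CPM for 9 macrophage markers, 108 to 241 for 8 endothelial, 84.4 to 231 for 8 stellate and fibroblast, 23.1 to 84.3 for 4 cholangiocyte, 2.53 to 6.52 for 4 T and NK cell, 2.28 to 8.82 for 4 B and plasma cell, 6.52 to 33.0 for 5 neutrophil and 4.35 to 14.0 CPM for 4 erythrocyte markers. No marker found was at 0 in all libraries. Some libraries stood apart from others of their group. On component 1 of all genes tested, which held 31.4% of the variance, 5 libraries (VHD animals 1 and 3 and LD animals 2 and 3 post-induction, with VHD animal 2 at baseline) had positive scores and the other 7 negative ones, the nearest scores being 7.22 and -5.61. On component 2 (20.6%) the lowest scores, -92.65 and -82.31, were those of VHD animal 3 at baseline and VHD animal 2 post-induction. In bulk tissue, fewer cells of a type and less RNA per cell cannot be told apart.

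No lipoprotein gene passed the test in any comparison (edgeR's quasi-likelihood test, Benjamini-Hochberg adjustment over 18373 genes, adjusted p under 0.05), and the genes differed widely in how steady they were between livers. APOB varied 1.69-fold between its lowest and highest library, MTTP 2.24-fold, APOH 3.08-fold, LIPC 4.01-fold, APOA2 4.83-fold, APOA1 8.18-fold, APOE 8.24-fold and APOA4 52.7-fold. On the log2 CPM scale the standard deviation over the 12 libraries was 0.19 for APOB and 1.70 for APOA4, beside a median of 0.59 over all genes tested. That median covers genes of all levels, whereas APOB and APOA4 averaged 12.8 and 2.57 log2 CPM, so it is not matched to either. APOA4 had the largest mean response of the 8, and it rested on a few animals. As the plot of CPM by library shows, the spread within groups was in most genes as wide as the distance between them.

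**Figure D1:**
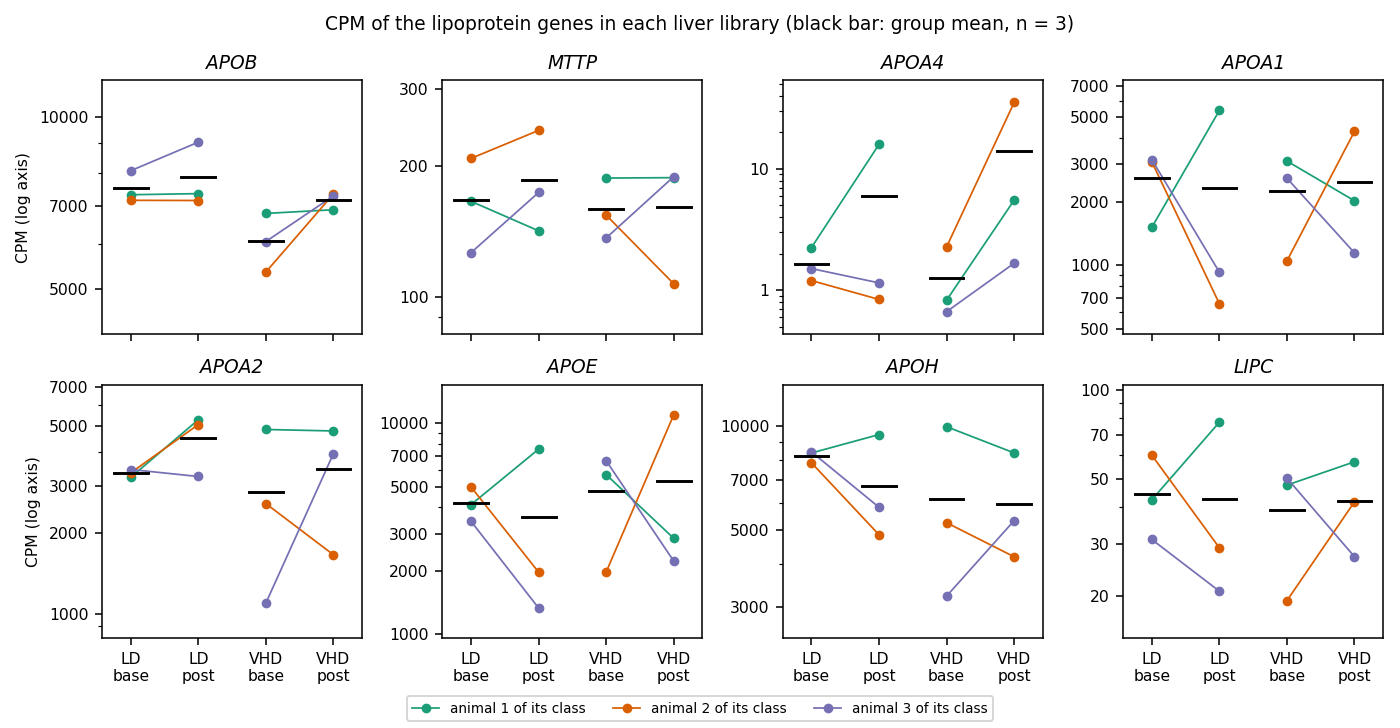
CPM (log axis) of each of the 8 genes in the 12 libraries, with lines joining the baseline and post-induction biopsies of an animal and black bars for group means (n = 3). APOB stays between 5361 and 9045 CPM, whereas APOA4 lies at 0.667 to 2.28 CPM in the 6 baseline libraries and reaches 15.9 and 35.2 CPM in 2 post-induction libraries.

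APOB is the scaffold of VLDL and LDL, with 1 copy on each particle, and lies on chromosome 13 (21220682 to 21267051, minus strand, in the Mmul_8.0.1 coordinates of the table; ENSMMUG00000007692). In LD livers it was measured at 7319, 7156 and 8063 CPM at baseline and at 7351, 7150 and 9045 CPM post-induction in animals 1, 2 and 3. In VHD livers it was measured at 6788, 5361 and 6062 CPM at baseline and at 6890, 7339 and 7283 CPM post-induction. All 3 VHD baseline libraries therefore lay below all 3 LD baseline libraries, and all 3 VHD post-induction libraries lay above the VHD baseline ones. Of all genes tested, 7.21% had VHD and LD baseline libraries that did not overlap and 6.69% had VHD libraries that did not overlap between the times. APOB was the only one of the 8 genes in either count. The corresponding shares were 11.7% for LD between the times and 4.83% for VHD against LD post-induction, where none of the 8 was found.

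The differences in APOB were small. Baseline means were 7513 ± 484 CPM in LD and 6070 ± 714 CPM in VHD, and post-induction means 7849 ± 1041 and 7171 ± 245 CPM (SD, n = 3). VHD stood at -0.31 ± 0.30 (log2 fold change ± SE, edgeR, adjusted p = 1.00) against LD at baseline, and the VHD response was 0.24 ± 0.30 (adjusted p = 1.00), with a 95% interval of -0.40 to 0.88. The mean response over both classes was 0.15 ± 0.21 (adjusted p = 0.925), with an interval of -0.30 to 0.60, which bounds a rise at 0.60 and a fall at 0.30 on the log2 scale.

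MTTP, the endoplasmic reticulum protein that transfers lipid onto nascent APOB, lies on chromosome 5 (98325847 to 98384941, plus strand; ENSMMUG00000009091). In LD livers it was measured at 166, 208 and 127 CPM at baseline and at 142, 241 and 174 CPM post-induction. In VHD livers it was measured at 187, 154 and 137 CPM at baseline and at 188, 107 and 189 CPM post-induction. The 4 groups overlapped, and 4 of 6 animals were higher after the induction. The mean response was 0.09 ± 0.24 (log2, adjusted p = 0.975 by edgeR), with a 95% interval of -0.43 to 0.60. MTTP was lowest in VHD post-induction 2, the library in which APOA4 and APOE were highest. P4HB, the protein disulfide isomerase that pairs with MTTP in the transfer complex, was highest in that library, at 977 CPM, and lay between 267 and 937 CPM in the other 11 (chosen after its values were seen). Genes outside the complex, such as CLU, DGAT1 and FBP1, were also highest in VHD post-induction 2. The share of all genes highest in that library was not counted.

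APOA4, a lipid-binding protein of triglyceride-rich particles and HDL that is made mainly in the intestine and less in the liver, lies on chromosome 14 (109647545 to 109649963, minus strand; ENSMMUG00000016125). LD livers held it at 2.25, 1.20 and 1.51 CPM at baseline and at 15.9, 0.841 and 1.15 CPM post-induction. VHD livers held it at 0.828, 2.28 and 0.667 CPM at baseline and at 5.52, 35.2 and 1.67 CPM post-induction. It was thus high in LD animal 1 and VHD animals 1 and 2 after the induction, and in the other 3 animals its post-induction level lay within the range of the baseline libraries. These values stand on 8 to 37 counts in the baseline libraries, on 300 counts in LD post-induction 1 and on 642 in VHD post-induction 2, so the 2 high values are far outside counting error.

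Group means of APOA4 were 1.65 ± 0.54 CPM in LD baseline, 5.96 ± 8.60 in LD post-induction, 1.26 ± 0.89 in VHD baseline and 14.1 ± 18.3 CPM in VHD post-induction (SD, n = 3). The mean response of APOA4 was 2.70 ± 0.83 on the log2 scale (6.48-fold), with a 95% interval of 0.92 to 4.48. It did not pass (edgeR, adjusted p = 0.307, unadjusted p = 0.00596), and 4 of 6 animals were higher. By class, the response was 1.90 ± 1.15 in LD (adjusted p = 0.875) and 3.49 ± 1.19 in VHD (adjusted p = 1.00, unadjusted p = 0.0115), and the difference of 1.58 ± 1.59 between them did not pass (adjusted p = 1.00). In VHD all 3 animals were higher, by 6.66-fold, 15.4-fold and 2.50-fold, and in LD animal 1 was 7.07-fold higher while animals 2 and 3 stood at 0.699 and 0.762 of their baseline. DESeq2 called the mean response (2.71 ± 0.73, adjusted p = 0.0144). With a term for the animal it was 1.70 ± 0.53 (edgeR, adjusted p = 0.454). Without LD post-induction 1 the mean response was 1.39 and the LD response -0.70, without VHD post-induction 2 the mean response was 1.68 and the VHD response 1.46, and without both VHD baseline 3 and VHD post-induction 2 it was 1.51. Over all its alternatives the adjusted p ran from 0.0144 to 0.658.

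APOA1, the main structural protein of HDL, is the neighbour of APOA4 on chromosome 14 (109662062 to 109663718, minus strand; ENSMMUG00000044545), 12.1 kb away. The LD libraries of animals 1 to 3 had 1511, 3079 and 3153 CPM at baseline and at 5385, 658 and 927 CPM post-induction. The VHD libraries of animals 1 to 3 had 3106, 1048 and 2577 CPM at baseline and at 2016, 4289 and 1144 CPM post-induction. The animals moved in opposite directions and far: LD animal 1 and VHD animal 2 stood at 3.56 and 4.09 times their baseline, and the other 4 animals at 0.214 to 0.649 of theirs. The mean response was therefore near 0 with a wide error, at -0.0027 ± 0.52 (log2, edgeR, adjusted p = 1.00; 95% interval -1.12 to 1.12). Without LD post-induction 1 the mean response of APOA1 was -0.78 and its LD response -1.71, against -0.15 with it, and neither passed (edgeR, adjusted p = 0.394 and 0.231). Without VHD post-induction 2 the mean response was -0.33, and without LD post-induction 2 or 3 it was 0.22 or 0.19. The animals that were higher in APOA1 were also higher in APOA4, but VHD animals 1 and 3 were higher in APOA4 and lower in APOA1. Over the 12 libraries, which share animals and preparation, the log2 CPM of these neighbours had a Pearson r of 0.52.

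APOE, the ligand by which remnant particles are taken up, lies on chromosome 19 (40213748 to 40218120, plus strand; ENSMMUG00000014305). Levels in LD livers were 4127, 4993 and 3432 CPM at baseline and at 7555, 1972 and 1334 CPM post-induction. Levels in VHD livers were 5717, 1980 and 6648 CPM at baseline and at 2853, 10996 and 2226 CPM post-induction. The pattern was that of APOA1: the same 2 animals were higher, at 1.83 and 5.55 times their baseline, and the other 4 stood at 0.335 to 0.499 of theirs. The mean response was -0.02 ± 0.50 (log2, edgeR, adjusted p = 0.997; 95% interval -1.11 to 1.06). Without LD post-induction 1 the mean response was -0.59 and the LD response -1.34, against -0.21 with it. The VHD response of 0.16 ± 0.71 (adjusted p = 1.00, edgeR) became -0.92 without VHD post-induction 2 and -0.60 without that library and VHD baseline 3. Macrophages also make APOE. The sum of 9 macrophage markers was 557 to 760 CPM in LD baseline, 234 to 526 in LD post-induction, 516 to 1240 in VHD baseline and 364 to 787 in VHD post-induction, and its part in the APOE values was not tested.

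LIPC, the hepatic lipase, lies on chromosome 7 (34979981 to 35122404, plus strand; ENSMMUG00000009566). LD animals 1, 2 and 3 had 42.4, 60.0 and 31.1 CPM at baseline and at 77.6, 29.2 and 20.8 CPM post-induction. VHD animals 1, 2 and 3 had 47.5, 19.3 and 50.2 CPM at baseline and at 57.0, 41.7 and 27.2 CPM post-induction. Groups overlapped throughout, 3 of 6 animals were higher after the induction, and the mean response was 0.02 ± 0.36 (log2, edgeR, adjusted p = 0.996; 95% interval -0.75 to 0.79). LD animal 1 and VHD animal 2 were again higher post-induction, here joined by VHD animal 1.

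The levels of APOA1, APOE and LIPC ran together across the libraries. Over the 12 libraries the Pearson r of log2 CPM was 0.88 between APOA1 and APOE, 0.76 between APOA1 and LIPC and 0.76 between APOE and LIPC. All 3 had lower medians in the 5 libraries with positive scores on component 1 than in the other 7. APOA1 lay at 658 to 2016 CPM (median 1048) in the 5 and at 1511 to 5385 (median 3106) in the 7. APOE lay at 1334 to 2853 CPM (median 1980) in the 5 and at 3432 to 10996 (median 5717) in the 7, without overlap. LIPC lay at 19.3 to 57.0 CPM (median 27.2) in the 5 and at 31.1 to 77.6 (median 47.5) in the 7. The division was drawn from all genes, these among them, so the values are a description. The share of all genes that part there without overlap was not counted. Of the 5 libraries 4 are post-induction. With a term for the division, the mean response was 0.65 for APOA1, 0.67 for APOE and 0.54 for LIPC (edgeR, adjusted p = 0.457, 0.258 and 0.590), against values near 0 without it. For APOA4 it was 2.63 (edgeR, adjusted p = 0.159). The term came from these same expression values, so these fits are descriptions too.

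**Figure D2:**
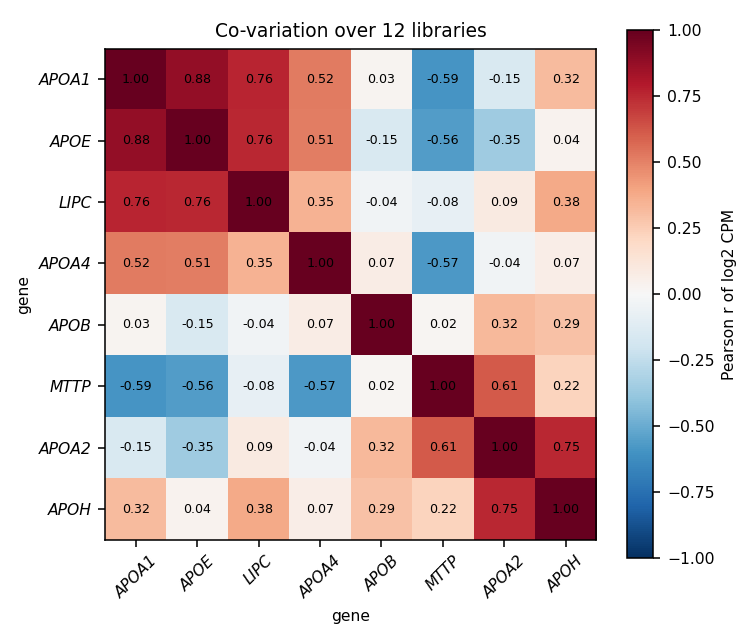
Pearson r of log2 CPM over the 12 libraries for each pair of the 8 genes (red positive, blue negative). APOA1, APOE and LIPC form a block with r of 0.76 to 0.88, APOA2 and APOH a pair with r of 0.75, and MTTP has r of -0.56 to -0.59 with APOA1, APOE and APOA4.

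APOA2 is the second structural protein of HDL and lies on chromosome 1 (135949909 to 135951053, minus strand; ENSMMUG00000004516). In LD animals the level was 3225, 3351 and 3448 CPM at baseline and at 5285, 5071 and 3247 CPM post-induction. In VHD animals the level was 4861, 2572 and 1095 CPM at baseline and at 4800, 1658 and 3950 CPM post-induction. The LD baseline libraries were close together and the VHD ones far apart, with the lowest values in VHD baseline 3 and VHD post-induction 2. The mean response was 0.36 ± 0.36 (log2, edgeR, adjusted p = 0.869; 95% interval -0.41 to 1.14), and 3 of 6 animals were higher.

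APOH, the phospholipid-binding glycoprotein also called beta2-glycoprotein I, lies on chromosome 16 (59674091 to 59692949, minus strand; ENSMMUG00000015120). The 3 LD animals had 8360, 7830 and 8418 CPM at baseline and at 9445, 4860 and 5831 CPM post-induction. The 3 VHD animals had 9951, 5263 and 3235 CPM at baseline and at 8363, 4199 and 5337 CPM post-induction. Its 2 lowest libraries were the same as for APOA2, and 4 of 6 animals were lower after the induction. The mean response was -0.17 ± 0.31 (log2, edgeR, adjusted p = 0.955; 95% interval -0.84 to 0.51). APOA2 and APOH had an r of 0.75 with each other, and of 0.84 and 0.82 with component 2, on which these 2 libraries stand apart. APOA1, by contrast, had an r of -0.91 with component 1 and of -0.23 with component 2.

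The RNA levels of HDL's structural proteins were thus not parallel across these libraries, and the proteins were not measured. APOA1 and APOA2 had an r of -0.155 over the 12 libraries. In VHD post-induction 2 APOA1 was at 4289 CPM and APOA2 at 1658 CPM, and in LD post-induction 2 they were at 658 and 5071 CPM.

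**Figure D3:**
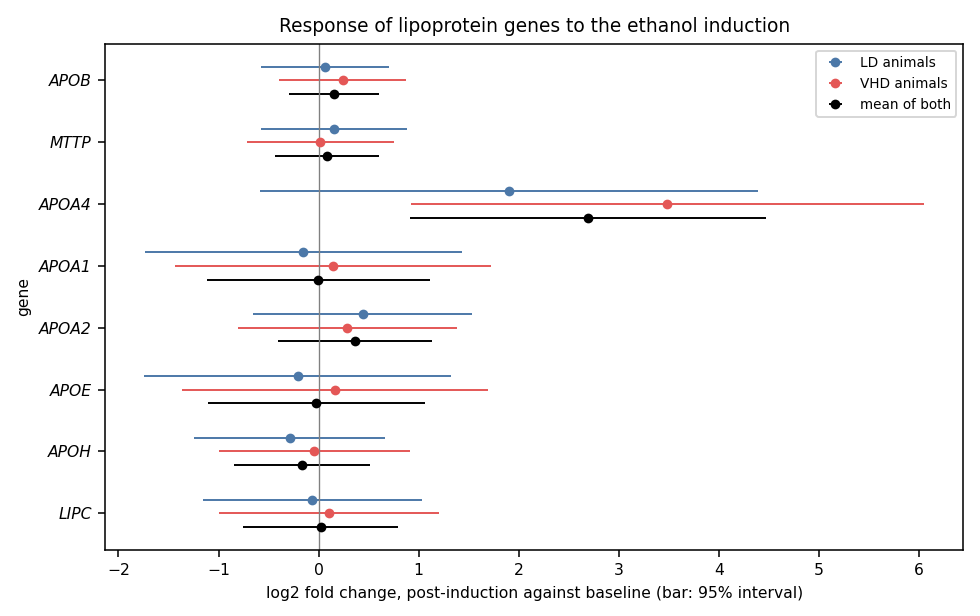
Log2 fold change from baseline to post-induction for each gene in LD animals, in VHD animals and as the mean of both, with 95% intervals from the edgeR fit. Every interval includes 0 except those of APOA4 in VHD (lower bound 0.92) and in the mean response (0.92), and neither passed after adjustment over all genes.

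Across all comparisons, 0 of the 8 genes passed with edgeR. In the mean response 0.267% of all genes tested passed (49 of 18373, 46 lower and 3 higher). That count was 4 with a term for the animal and 284 by DESeq2. It was 0 without LD post-induction 2 or VHD post-induction 1, 1 without LD baseline 3 or VHD baseline 1, 2 without VHD post-induction 3, 4 without LD post-induction 3, 12 without LD baseline 2 and 31 without VHD baseline 2. These omissions all lowered the count. Others are not listed, and the range over all of them, given below, reaches above 49. At an unadjusted p under 0.05 APOA4 alone of the 8 was found in the mean response, where the share of all genes was 7.91%, and in the VHD response, where it was 3.44%. None of the 8 had an unadjusted p under 0.05 in the LD response (5.7% of all genes), the difference of the responses (1.3%), VHD against LD at baseline (1.86%) or VHD against LD post-induction (2.44%). After adjustment the share of all genes was 0.00544% for VHD against LD at baseline, which is 1 gene without a symbol (ENSMMUG00000018314, named because it was the only one), and 0% for the other 4 comparisons. None of the 8 had baseline and post-induction ranges (6 libraries each) without overlap, against 0.991% of all genes, and none had the same sign in 6 of 6 animals, against 6.41%. The median of the 8 mean responses was 0.05 on the log2 scale, beside 0.07 over all genes tested.

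Between the classes, the values were as small relative to their error. At baseline VHD against LD ran from -0.42 ± 0.44 for APOH to 0.19 ± 0.71 for APOE (log2 ± SE, edgeR, adjusted p = 1.00 for each of the 8), and 7 of the 8 were negative. Their median was -0.22, beside 0.07 over all genes tested, and the share of all genes that were negative was not counted. Several of the 8 ran together, so their signs are not independent. Scaling by library totals alone moved the median of all genes by 0.189 in this comparison. Post-induction, VHD against LD ran from -0.39 ± 0.51 for APOA2 to 1.23 ± 1.07 for APOA4 (edgeR, adjusted p = 0.999 for each). The APOA4 value became -0.80 without VHD post-induction 2. The intervals were widest for APOA4, at -1.08 to 3.54 post-induction, and narrowest for APOB, at -0.77 to 0.51, so class differences of about 1 log2 unit could not be told from 0 in most of these genes.

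The table is per transcript, which allowed the make-up of each gene to be followed. APOB and MTTP rested on 1 transcript each, with at least 99.991% and 99.858% of the gene's counts in every library. APOA1 was split over 3 transcripts that share the start at 109662062 and differ in the stop, which on the minus strand is the 5′ side. The transcript ending at 109663627 held 44.4 to 80.0% of APOA1 counts (median 73.0%). The one reaching farthest, to 109663718, held 25.9% in VHD baseline 3 and 26.6% in VHD post-induction 2, and 0.292 to 13.7% in the other 10 libraries.

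In APOA2 the shorter transcript (135949995 to 135950880) held 5.43 to 13.8% of the counts in the 7 libraries. In the 5 it held 20.0 to 45.9%, without overlap, whereas the totals of APOA2 overlapped. How many transcripts of all genes part in this way was not counted. In APOE 1 transcript held 80.1 to 99.9% of the counts, and the remainder was seen in the main in VHD baseline 1, LD post-induction 1, VHD post-induction 1 and LD baseline 2, where the second one had 19.6, 17.2, 8.75 and 6.54%. In LIPC the 2 main transcripts shared the counts, and the one from 34980021 to 35121861 ranged from 0.025% in VHD post-induction 2 and 3.72% in VHD baseline 3 to 58.9% in LD post-induction 1. These shares are estimates, since overlapping transcripts of a gene share most of their reads.

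**Figure D4:**
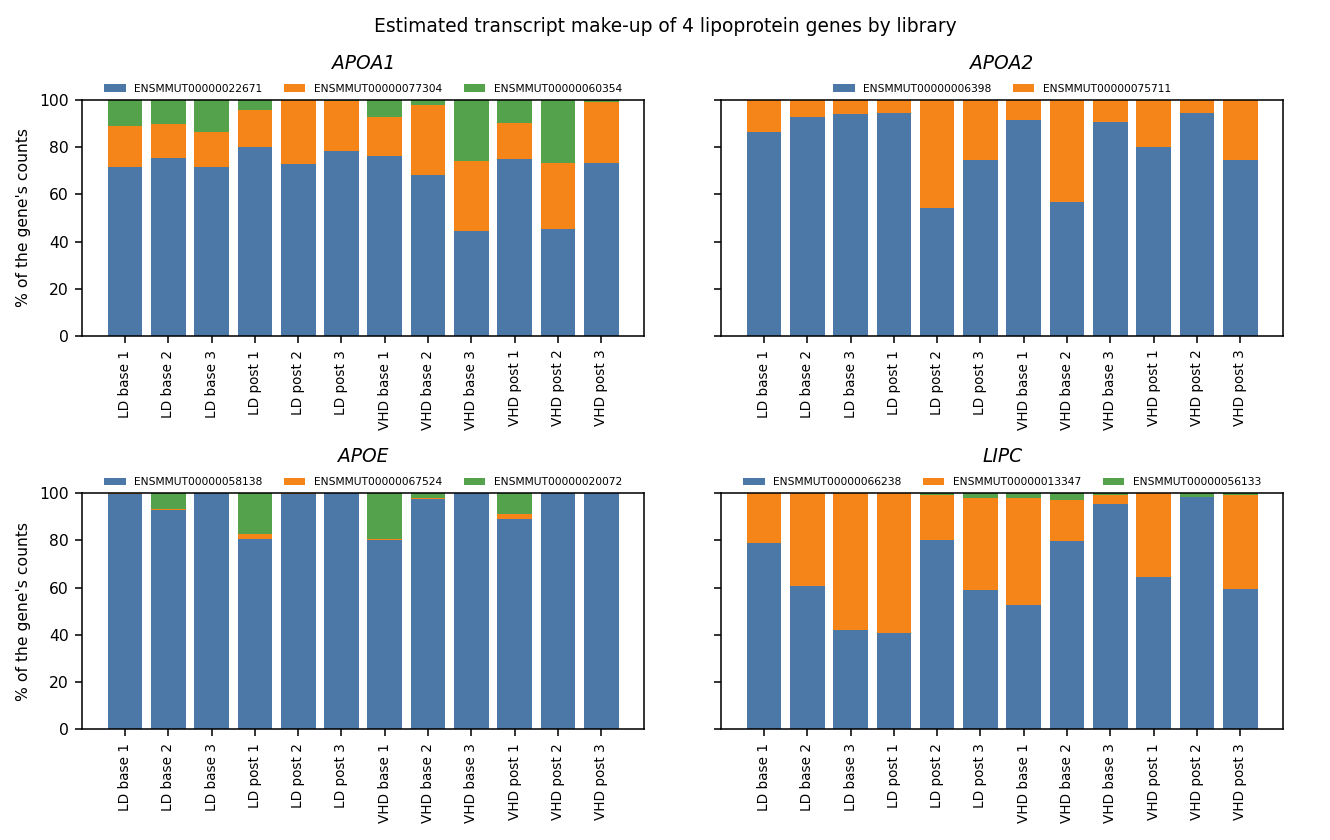
Share of each transcript in the counts of APOA1, APOA2, APOE and LIPC, as stacked bars in percent for the 12 libraries. The longest APOA1 transcript has its largest shares in VHD post-induction 2 (26.6%) and VHD baseline 3 (25.9%), and LD post-induction 2 the largest share of the shorter APOA2 transcript (45.9%).

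Further genes of lipoprotein biology were taken from 6 lists of 82 names, of which 70 were found and tested. None passed with edgeR in any comparison. In the mean response 6 of the 70 (8.57%; 2 higher, 4 lower) had an unadjusted p under 0.05, close to the 7.91% of all genes, and DESeq2 called 2 (FOXA2 and PPARGC1A, both lower). In the remaining comparisons DESeq2 called 0 of the 70. With edgeR, 6 of the 70 (8.57%; 3 higher, 3 lower) were at an unadjusted p under 0.05 for VHD against LD post-induction, beside 2.44% of all genes. At baseline it was 1 (1.43%, beside 1.86%), in the LD response 3 (4.29%, beside 5.7%), in the VHD response 4 (5.71%, beside 3.44%) and in the difference 0 (beside 1.3%). Of the 70, SAA4, SDC1, PPARGC1A, FOXA2 and NR1H4 had the same direction in 6 of 6 animals, as did 6.41% of all genes tested.

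Of the 9 other apolipoproteins and HDL-bound proteins tested, 8 had a negative mean response (median -0.24, beside 0.07 over all genes). SAA4, the constitutive serum amyloid A of HDL, was lower in 6 of 6 animals, with 740 to 2093 CPM at baseline and 447 to 1123 post-induction (-0.57 ± 0.31, edgeR, adjusted p = 0.704). APOL2 had a value of -0.45 ± 0.38 and PON1, an HDL-bound esterase, one of -0.35 ± 0.39 (adjusted p = 0.84 and 0.892). The value of PON1 became 0.049 without VHD baseline 1.

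In the list of VLDL assembly and secretion, 12 of 22 were positive and 10 negative (median 0.04). PNPLA3, a lipid droplet lipase, had a value of 0.60 ± 0.28 (adjusted p = 0.636). The enzymes of the last step of triglyceride synthesis had values of 0.46 ± 0.28 (DGAT1) and -0.57 ± 0.35 (DGAT2) (adjusted p = 0.739 and 0.741, edgeR). Among the 6 lipases and lipase regulators, 2 were positive, and LIPG, the endothelial lipase, had 0.60 ± 0.42, LMF1, a lipase maturation factor, -0.45 ± 0.35, and ANGPTL4, a lipase inhibitor, -0.63 ± 0.53 (adjusted p = 0.777, 0.807 and 0.835, edgeR). ANGPTL4 became 0.15 without VHD baseline 3.

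Of 5 genes of HDL formation and exchange, 2 were positive. CETP, which moves cholesteryl ester from HDL to APOB particles, was lower in 5 of 6 animals, with 26.3 to 49.0 CPM at baseline and 8.72 to 37.9 post-induction (-0.93 ± 0.31, edgeR, adjusted p = 0.375). Without LD post-induction 1 it passed (-1.31, edgeR, adjusted p = 0.0465). It did not pass by DESeq2 (adjusted p = 0.163), nor in edgeR with a term for the animal (0.509) or for the 5 and 7 libraries (0.366). ABCA1, the exporter that loads lipid onto APOA1, had -0.57 ± 0.31 (edgeR, adjusted p = 0.707). With a term for the 5 and 7 libraries its value was -1.25 and under the threshold (edgeR, adjusted p = 0.0343). That term was drawn from these same expression values, and most of the 5 libraries are post-induction, so this p is a description only. By DESeq2 (adjusted p = 0.566) and in edgeR with a term for the animal (0.705) ABCA1 did not pass. ABCG1 had 0.34 ± 0.41 (adjusted p = 0.908, edgeR).

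Of 8 receptors and clearance genes, 5 were positive (median 0.17). SORT1, a sorting receptor that binds APOB in the Golgi, was higher in 5 of 6 animals, with 3.37 to 15.4 CPM at baseline and 12.9 to 22.4 post-induction (1.05 ± 0.36, edgeR, adjusted p = 0.394). SDC1, a proteoglycan that binds remnants, was higher in 6 of 6 animals, with 226 to 409 CPM at baseline and 341 to 553 post-induction (0.59 ± 0.24, adjusted p = 0.546), and LRP1, a remnant receptor, had 0.23 ± 0.20 (adjusted p = 0.847).

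Of 20 transcriptional regulators of apolipoprotein genes, 9 were positive and 11 negative (median -0.01). PPARGC1A, a coactivator of HNF4A and FOXO1, was lower in 6 of 6 animals, with 45.7 to 137 CPM at baseline and 24.1 to 48.9 post-induction (-1.41 ± 0.30). It missed the threshold with edgeR (adjusted p = 0.0887), passed with DESeq2 (adjusted p = 0.00133) and had adjusted p = 0.136 in edgeR with a term for the animal. With a term for the 5 and 7 libraries the adjusted p was 0.0289 (edgeR), a description only, since that term was drawn from these same expression values. FOXA2, a hepatocyte factor that opens chromatin, was also lower in 6 of 6 animals, with 55.6 to 118 CPM at baseline and 12.4 to 57.8 post-induction. Its mean response was -1.17 ± 0.33 (edgeR, adjusted p = 0.255), and it passed with DESeq2 (adjusted p = 0.046). In edgeR with a term for the animal (adjusted p = 0.394) or for the 5 and 7 libraries (0.296) FOXA2 did not pass. FOXO1, an insulin-restrained activator of MTTP, had -0.90 ± 0.27 (edgeR, adjusted p = 0.3). MTTP itself stood at 0.09 ± 0.24, as given above, beside these 3 negative values. The part of these regulators in the MTTP values was not tested.

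**Figure D5:**
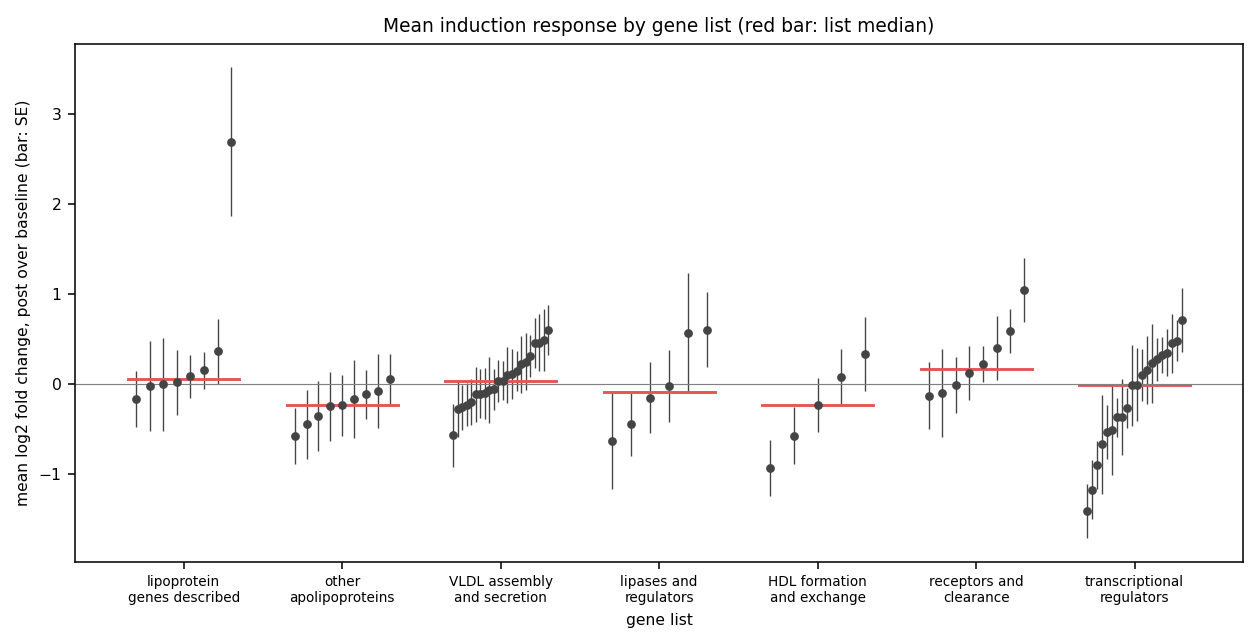
Mean log2 fold change from baseline to post-induction (points, with SE) of every tested gene of the 7 lists, with red bars for list medians. APOA4 stands alone at 2.70, and the lowest points are the regulators PPARGC1A (-1.41) and FOXA2 (-1.17).

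The genes most like 4 of the lipoprotein genes were sought among 2328 named genes whose log2 CPM averaged 5 or more, by Pearson r of log2 CPM over the 12 libraries. For APOA1 they were AKR7A2 (0.96), AKR7A3 (0.955) and HYPK (0.955). For APOA4 they were FBP1 (0.898), an enzyme of glucose production, SLC25A39 (0.885), a mitochondrial carrier, and ESYT1 (0.865), a membrane contact protein. FBP1 lay at 448 to 623 CPM in 10 libraries and at 890 and 949 CPM in LD post-induction 1 and VHD post-induction 2, the libraries with the highest APOA4. For MTTP they were SMARCA1 (0.89), GPAM (0.87), which starts glycerolipid synthesis, and CMPK1 (0.87). For APOB, which varied little, EPB41L5 (0.84) and DNAJB1 (0.73) were among them.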

How the data were processed

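Per the labels' protocols, 500 ng of liver RNA (RIN above 8.5) per sample went into a NEXTFLEX Combo-Seq preparation and 76-base reads came from an Illumina NovaSeq. The deposited table holds expected counts per Ensembl transcript. The submitters' processing notes name Mmul_8.0.1 as build and BWA, Bowtie and Partek as tools. Tool versions, annotation and strand setting: not given in the sources used here. Of the values, 40.1% were whole. Starts may count from 0 or 1 and so be off by 1 base.

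Counts of 40611 transcripts were summed per gene identifier and rounded, and filterByExpr kept 18373 genes. With edgeR 4.0.16 (R 4.3.3), 4 group means were fitted to the 12 TMM-scaled libraries by robust quasi-likelihood, with Benjamini-Hochberg adjustment over all genes and a threshold of 0.05. The SE is the log2 fold change divided by the square root of F, and 95% intervals use the t distribution with the fit's degrees of freedom. Component analyses and correlations used log2 CPM with a prior count of 2. CPM are not scaled by gene length, so values of different genes or marker sets printed side by side are not comparable in amount. The fit was also run on simulated counts with the same dispersion for all genes and no animal or division effect. That run does not measure its error in these libraries.

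Both biopsies come from the same animals, matched by the number in the titles. The correlations of the paired deviations from the group means over all genes were -0.354 to 0.406. The labels state no paired model, so the main fit held no animal term, which was tried as an alternative. The genes and lists were chosen with earlier results of these data known. Named were all 8 genes and, from each further list, genes past the threshold or otherwise the 3 with the smallest p in the mean response, others being marked or given for comparison. Alternatives were other scaling factors, DESeq2 1.42.0, other filters, the animal or title number as a term, the compared groups alone, transcripts in place of genes, leaving out libraries, and a term for 5 and 7 libraries. The term for 5 and 7 libraries was drawn from these same expression values, so counts and p-values from fits with it are descriptions. miRNA tables and the normalized table were not used. One gene that the likeness rule picks is not reported here.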

Additional observations from a re-analysis of the deposited data

How the results depend on the processing

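Under 24 alternatives, 18 of 1088 values of the 8 genes were counted as changing sign and 1 gained a call. A sign change was counted only where the value was called or moved by more than 1 SE. The other 1069 therefore include smaller sign changes, as for APOA1 in VHD against LD at baseline (-0.20, up to 0.31). None of the 8 genes was called in the main fit, so no call of theirs could be lost. DESeq2 called 1 of the 8 genes in the mean response (APOA4) and more genes in all: 284 in the mean response, 64 in the VHD response, 54 in the LD response, 1 in the difference and 1 in VHD against LD post-induction. The cause of each change below was not tested. The gene called for VHD against LD at baseline was lost (0 called) with upper-quartile factors, library totals alone, the filter of 1 CPM, only the groups compared, both VHD libraries removed, the term for 5 and 7 libraries, or transcripts in place of genes. For VHD against LD post-induction, 1 gene was called without a filter and with only the groups compared. With VHD baseline 3 and VHD post-induction 2 removed, 1 gene was called in the VHD response and 32 in the mean response. With the term for 5 and 7 libraries the counts were 3 and 103, and with transcripts the mean response had 0.

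With the animal as a replicate block, 4 genes were called in the mean response and none of the 8 lipoprotein genes. The block changed no other call, and the number in the titles, which pairs no LD animal with a VHD one, changed none.

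With the term for 5 and 7 libraries, signs changed for APOA4 in VHD against LD at baseline (1.01), APOE in the LD response (0.72), and APOA1 (0.65), APOE (0.67), MTTP (-0.17) and LMF1 (0.022) in the mean response. With both VHD libraries removed they changed for VHD against LD post-induction in APOA4 (-0.80) and APOE (-0.51), for the VHD response of APOE (-0.60), the difference in APOA4 (-0.79) and the mean response of ANGPTL4 (0.22).

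Leaving out 1 library at a time, the number of genes called ran from 0 to 1 for VHD against LD at both times and for the VHD response, and from 0 to 71 for the mean response. Over these omissions, VHD against LD post-induction ran from -0.80 to 3.83 for APOA4, -0.52 to 1.70 for APOE, -0.56 to 1.65 for APOA1 and -0.35 to 0.74 for LIPC. The LD response ran from -0.70 to 2.42 for APOA4, -1.71 to 0.29 for APOA1 and -1.34 to 0.19 for APOE. The VHD response ran from 1.46 to 4.22 for APOA4, -0.92 to 0.51 for APOE and -0.39 to 0.49 for APOH. The difference ran from -0.44 to 4.18 for APOA4, -0.71 to 1.50 for APOE and -0.36 to 1.85 for APOA1. The mean response ran from 1.39 to 3.06 for APOA4, -0.78 to 0.22 for APOA1, -0.59 to 0.18 for APOE, -0.37 to 0.18 for LIPC, -0.63 to 0.049 for PON1 and -1.02 to 0.15 for ANGPTL4. Library totals alone moved the median of all genes by 0.189 for VHD against LD at baseline and by -0.107 for the difference. Baseline levels of APOA4 stood on 8 to 37 counts and are the least precise. The fit of only the groups compared gives no value for the difference or the mean response.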

Other observations

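TM6SF2 and CREB3L3 were looked at beside APOA4 after their values were seen. TM6SF2, a membrane protein that takes part in loading VLDL with lipid, was highest in the same 2 libraries as APOA4, at 107 CPM in VHD post-induction 2 and 62.2 CPM in LD post-induction 1, and at or below 46.2 CPM in the other 10. AKR7A2, FBP1 and P4HB were also highest in these 2 libraries, and the share of all genes that were was not counted. CREB3L3, a liver transcription factor known to activate APOA4, was also highest in VHD post-induction 2, at 356 CPM. In LD post-induction 1 it was at 204 CPM, below the 278 CPM of VHD baseline 3 and the 273 CPM of VHD baseline 1, where APOA4 was at 0.667 and 0.828 CPM. The part of CREB3L3 in the APOA4 values was not tested.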
